A study of Mus musculus with 6 samples.

Results

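Nr4a1, Nr4a2, Nr4a3, Egr1, Egr2, Egr3 and Irf4 are 7 genes for transcription factors that T cells switch on after the T cell receptor binds antigen. They were taken by name, 7 of the 31053 genes listed, and all 7 had UMIs (unique molecular identifiers, each marking 1 captured transcript). The cells were CD45+ bead-enriched tumor-infiltrating leukocytes of CT26 tumors, a mouse colorectal carcinoma line grown in Balb/c mice, and were profiled by 3′ single-cell mRNA-seq 5 days after treatment. The labels describe 6 samples in 3 groups of 2. Mice had received vehicle or a PD-1 GITR-L bispecific antibody, which joins a binder of the checkpoint receptor PD-1 to the ligand of the costimulatory receptor GITR, at a low or a high dose. The treatment labels gave 30 mg/kg for both doses, while the protocol gave 10 mg/kg for the low dose. The study's text names another dose and an isotype control, so the doses are uncertain.

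The table held 33961 cells of 4 libraries named M1, M2, M5 and M6, with 7160 to 10294 cells and medians of 11399 to 21800.5 UMIs per cell. Nothing in the labels tied a library to a sample, so no treatment comparison could be made, and each library is shown on its own. Values are counts per 1000000 UMIs (CPM) of the summed cells that share a label, with the lowest and highest library in parentheses. The 12 cell labels are those deposited by the authors, and 10 of them held 100 cells or more. Of the barcodes, 111 occurred in more than 1 library. Stroma cells made up 57.1% and 61.2% of M2 and M1, against 27.2% and 30.9% of M5 and M6, and held 75.6% of all UMIs.

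The labels were checked against marker genes. Summed T cell markers (Cd3e, Cd3d, Cd3g and Trac) reached 3413 CPM in T cell EFF, 3527 CPM in T cell MEM and 148 CPM in NK cells. NKT cells had 3345 CPM of T cell markers. They had 189 CPM of the NK cell list, against 2659 CPM in NK cells, so this list did not bear out the NK part of that name. They carried Foxp3 at 196 CPM, and the T cells label had more, 239 CPM, with Cd4 at 192 CPM and Cd8a at 1.71 CPM. The ILC label held 1924 CPM of the NK cell list and 613 CPM of T cell markers. Stroma had the highest level of all 4 fibroblast markers, yet only 1786 of its 15642 cells thinned to 2000 UMIs had a Col3a1 UMI, so the label is used here without calling these cells fibroblasts.

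NR4A proteins are orphan nuclear receptors that act without a known physiological ligand, and EGR proteins are zinc finger factors. Both families belong to the immediate early genes, whose transcripts rise quickly after many signals, growth factors and tissue handling among them, and fall again soon after. In T cells, calcium and NFAT signaling downstream of the receptor induces them, NR4A factors take part in the exhaustion program, and Egr2 and Egr3 restrain activation. IRF4 is an interferon regulatory factor whose amount follows the strength of the receptor signal and which is also needed by plasma cells.

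The 7 genes did not share a pattern over the labels. Nr4a2 alone was highest in T cell EFF, in the pooled sums and in 3 of 4 libraries, with DC at 383 CPM above T cell EFF in M6. The EGR genes were highest outside the T cell labels, Egr1 in Stroma, Egr2 in Myeloid and Egr3 in DC or Stroma, depending on the library. Nr4a1 and Irf4 were highest in B cells in 3 of 4 libraries each, Nr4a1 being highest in NKT in M5 and Irf4 in T cells in M2, and Nr4a3 was shared by NKT, DC and T cells. The Irf4 order in M2 rested on 7 UMIs in 19 cells of the T cells label and 5 UMIs in 31 B cells. Induction through the T cell receptor is background here and was not tested. It does not say where these transcripts were most abundant in this tissue, so the genes are named here by family.

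**Figure D1:**
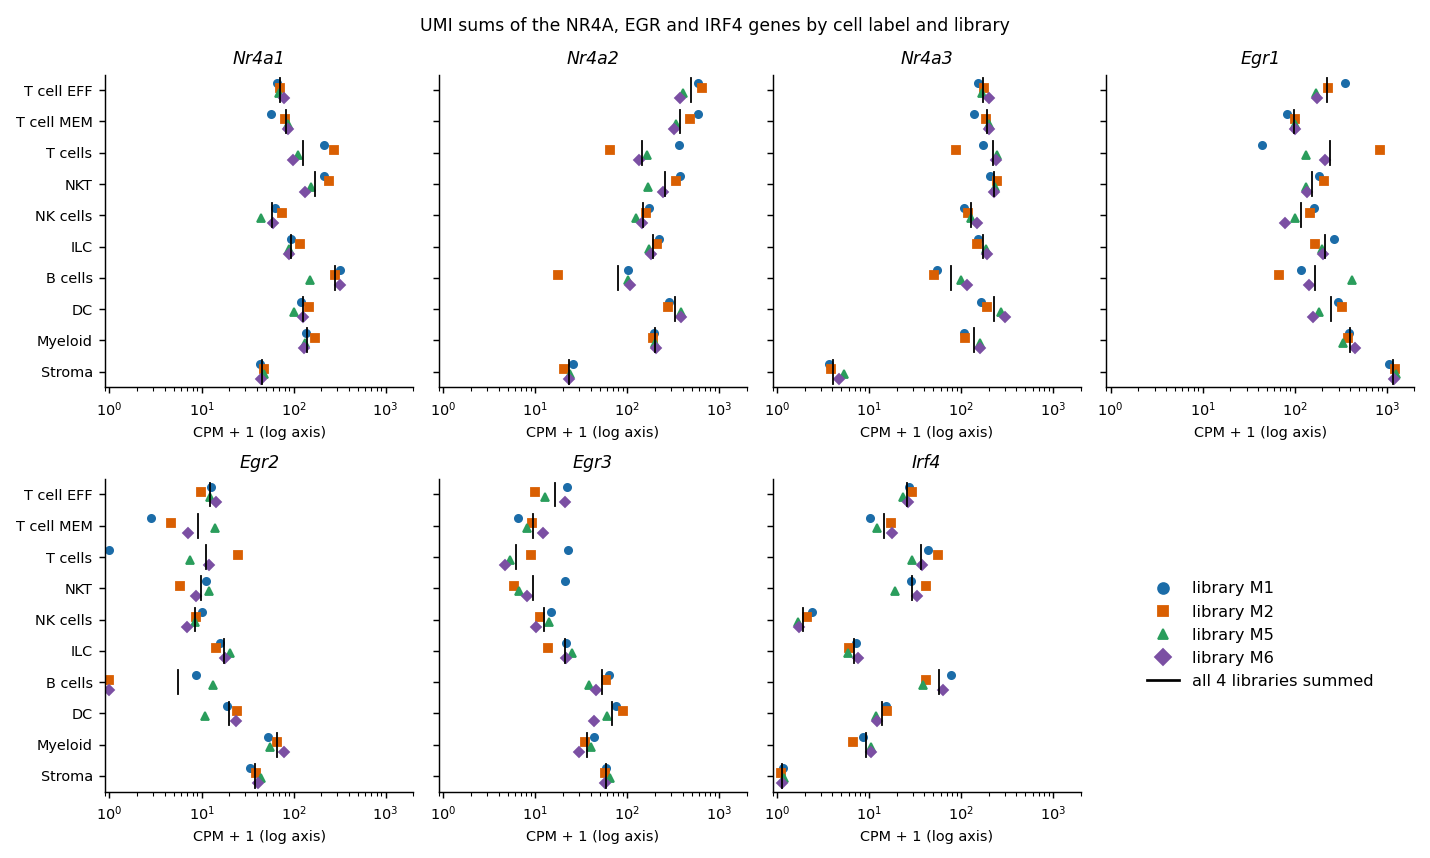
Level of each of the 7 genes in the 10 labels with 100 cells or more. The x axis is CPM + 1 on a log scale, each symbol is 1 library, and the black line is the sum over the 4 libraries. Nr4a2 is highest in T cell EFF at 491 CPM and Egr1 in Stroma at 1159.9 CPM, while Nr4a3 and Irf4 are lowest in Stroma.

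Nr4a2 (chr2:57106830-57124003, minus strand of GRCm38) encodes NURR1, best known for its role in dopaminergic neurons and also induced in T cells. In T cell EFF it stood at 588 CPM in M1 and 643 CPM in M2 and at 407 CPM in M5 and 378 CPM in M6, a pooled level of 491 CPM. All 4 values lay above the 4 of NK cells, which ran from 125 to 170.2 CPM. T cell MEM followed at 372 CPM (319.6–579) and DC at 328 CPM (278–383), and the library ranges of T cell EFF, T cell MEM, DC and NKT overlapped from each to the next. Within each library T cell EFF was above T cell MEM, by 0.02 to 0.42 on the log2 scale. Stroma was lowest at 22.5 CPM (19.8–24.5), except in M2, where B cells had 16.5 CPM.

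The share of cells behind this level was also large. Because deeper cells show more genes, each cell was thinned to 2000 UMIs, which left out 696 shallower cells. A Nr4a2 UMI was then found in 54.8% of T cell EFF cells (95% exact interval 53.2–56.5%), with 64.4%, 64.2%, 47.2% and 45.8% in M1, M2, M5 and M6. The share was 39.6% in T cell MEM, 26.6% in NK cells and 4.76% in Stroma, where median depth before thinning was 6280.0, 5397 and 40692 UMIs against 10049 in T cell EFF. Intervals here cover counting error only.

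Nr4a3 (chr4:48045153-48086447, plus strand) encodes NOR1. Its level was 228 CPM (206–245) in NKT, 192 CPM (139–199.9) in T cell MEM and 174 CPM in both ILC (149–192) and T cell EFF (152–199). NKT overlapped none of these other 3 labels. T cell EFF gave 152, 177, 169.9 and 199 CPM in M1, M2, M5 and M6, so none of its libraries stood apart. DC reached 228 CPM (164–297). NK cells had 127 CPM (108–147), below every library of NKT, ILC and T cell EFF. Stroma had 3.11 CPM (2.64–4.34), and a Nr4a3 UMI was found in 0.940% of its thinned cells against 29.1% of T cell EFF cells. Of all pairs among the 7 genes, Nr4a2 and Nr4a3 had the highest Pearson r, 0.83, over 38 sums of 1 label in 1 library. It was taken on log2(CPM + 1) and is a description only, since sums of the same library share their depth and free RNA. Both genes were lowest in Stroma in the pooled sums, and r without Stroma is not given. The order of the other labels differed, with T cell EFF at rank 1 for Nr4a2 and rank 6 for Nr4a3.

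Nr4a1 (chr15:101254269-101274795, plus strand) encodes NUR77, widely used as a reporter of recent antigen receptor signaling in T and B cells. B cells, 124 in number, had 278 CPM (149–320.2) and NKT 169 CPM (132–242), while T cell EFF had only 70.0 CPM, with 64.5, 70.4, 68.9 and 77.0 in the order M1, M2, M5, M6. NK cells had 57.6 CPM (43.2–73.9), which overlapped T cell EFF. Myeloid cells had 139 CPM (129–169.5), above every T cell EFF library. After thinning, 33.0% of B cells (24.4–42.6%), 23.7% of NKT cells and 12.0% of T cell EFF cells had a Nr4a1 UMI.

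Because Nr4a2 and Nr4a3 had the highest r of all pairs among the 7 genes, the bases before their transcription starts are shown, together with those of Egr2. RefSeq start sites (GRCm38.p6) were used for 5 of the 7 genes, and 250 bases before each were searched on both strands. Egr1 and Egr3 were not searched, so nothing is said of their motifs. The half-site of the cAMP response element, TGACG, which CREB family factors can bind, is in capitals in the NR4A stretches, also where it reads CGTCA on the other strand. The window of Nr4a3 is cut where a GENCODE exon begins. In the Egr2 stretch the capitals mark a CArG box, the element bound by serum response factor.
Nr4a2, chr2:57124004-57124253, minus strand: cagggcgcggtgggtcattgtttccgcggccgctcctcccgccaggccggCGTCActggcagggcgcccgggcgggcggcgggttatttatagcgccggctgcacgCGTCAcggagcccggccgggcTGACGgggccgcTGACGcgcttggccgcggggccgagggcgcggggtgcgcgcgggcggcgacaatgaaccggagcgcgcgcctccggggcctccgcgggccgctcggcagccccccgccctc
Nr4a3, chr4:48045055-48045152, plus strand: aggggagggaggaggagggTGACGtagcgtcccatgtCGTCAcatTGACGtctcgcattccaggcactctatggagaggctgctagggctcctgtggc
Egr2, chr10:67537619-67537868, plus strand: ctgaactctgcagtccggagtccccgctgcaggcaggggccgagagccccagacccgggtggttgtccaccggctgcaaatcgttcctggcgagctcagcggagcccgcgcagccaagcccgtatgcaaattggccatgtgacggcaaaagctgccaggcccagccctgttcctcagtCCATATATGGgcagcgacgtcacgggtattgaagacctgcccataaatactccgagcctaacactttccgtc

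The full windows of Nr4a1, Nr4a2 and Nr4a3 each held 4 half-sites, and 3 of the 5 Egr2 windows, the printed one among them, held 2, left in lower case there. At least 1 half-site occurred in 17.8% of all 32851 windows of that length and 3 or more in 0.688%. A CArG box was in 4 of the 5 Egr2 windows, of which 3 overlap and hold the same box, so these were 2 distinct boxes. None of the 4 windows of the other searched genes, which leave out Egr1 and Egr3, held one, and 1.47% of all windows did. The full element TGACGTCA, which contains the half-site on each strand, was in none of the 9 windows of these genes and in 1.55% of all. The EGR site GCGNGGGCG was in the Nr4a1 and Nr4a2 windows and in 4.70% of all. Irf4 held none of the 4 motifs. A match describes the letters only.

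Egr1 encodes the best known growth factor response gene of the family. It was by far highest in Stroma, with 1055, 1229.9, 1249.9 and 1199 CPM in the 4 libraries, in the order above. Every one of these lay above every library of every other label compared. Myeloid followed at 398 CPM (338–457), again without overlap with the next label, DC at 246 CPM (158–329). T cell EFF had 347, 232, 168 and 176 CPM in M1, M2, M5 and M6, and NK cells 115 CPM (77.0–160.3). After thinning, 74.3% of Stroma cells (73.6–74.9%) and 35.3% of Myeloid cells had an Egr1 UMI, against 16.8% of T cell EFF and 11.2% of NK cells.

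The Egr1 level of T cell EFF rested on few cells. The tenth of T cell EFF cells with the most Egr1 UMIs held 81.5% of them, against 34.6% in Stroma and against 36.2% for Nr4a2 in T cell EFF. When the 115 of 3633 T cell EFF cells with a doublet score over 0.25 were left out, Egr1 fell from 225 to 130.1 CPM and its library range narrowed from 168–347 to 118–139 CPM. In ILC the same step gave 143 in place of 210.2 CPM and in DC 165 in place of 246 CPM, while Stroma went from 1159.9 to 1161 CPM. Nr4a2 in T cell EFF moved the other way, from 491 to 530.1 CPM.

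Egr2 (chr10:67535475-67542188, plus strand) is needed for myelination and, in the immune system, marks some macrophages and anergic T cells. It was highest in Myeloid cells, with 51.6, 65.4, 55.1 and 78.6 CPM in the 4 libraries. Stroma had 36.9 CPM (32.6–43.1) and overlapped neither Myeloid nor DC at 19.0 CPM (9.91–23.6). T cell EFF had 11.4 CPM (8.80–13.3). An Egr2 UMI was found in 10.1% of thinned Myeloid cells (8.95–11.3%) and in 1.10% of T cell EFF cells, which lies inside the interval of NK cells at 1.04% (0.759–1.40%). The summed level of NK cells was 7.43 CPM, and that of T cell EFF was higher in all 4 libraries by 0.17 to 1.05 on the log2 scale. Without thinning, at median depths of 10049 and 5397 UMIs, the shares were 7.90% and 4.09%.

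Egr3 (chr14:70077203-70082614, plus strand) shares targets with Egr2 in lymphocytes. DC had 67.8 CPM (42.4–89.0), Stroma 57.8 CPM (56.3–63.9) and B cells 51.9 CPM (37.4–62.2), and each overlapped the next. DC was the highest label in M1 and M2 and Stroma in M5 and M6. T cell EFF had 21.2, 8.90, 11.9 and 20.2 CPM in M1, M2, M5 and M6, a spread that covered the whole range of NK cells at 9.20 to 13.8 CPM. After thinning, which gives every cell the same weight, the order turned: Stroma had 69.2 CPM (66.4–87.9), B cells 49.1 CPM, and DC 15.6 to 63.3 CPM over the libraries, all below Stroma. An Egr3 UMI was then found in 11.9% of Stroma cells, 8.04% of B cells, 5.57% of DC and 1.95% of T cell EFF cells.

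Irf4 (chr13:30749226-30766976, plus strand) set lymphocytes of the adaptive system apart from NK cells. T cell EFF had 26.5, 28.2, 22.2 and 25.7 CPM in the 4 libraries. NK cells had 1.41, 1.10, 0.713 and 0.729 CPM, from 8 to 11 UMIs per library, far below each T cell EFF value. B cells had 56.5 CPM (37.4–77.8), T cells 35.9 CPM (28.3–55.9) and NKT 28.5 CPM (18.4–40.6), with overlap from each to the next. The T cells label was above NKT in all 4 libraries, but it held only 11 cells in M1 and 19 in M2. T cell MEM had 13.7 CPM (9.18–17.0) and did not overlap T cell EFF. After thinning, an Irf4 UMI was found in 5.73% of T cell EFF cells (4.98–6.54%), 0.0948% of NK cells and 0.0256% of Stroma cells, both far below the T cell share. It was found in 3.90% of DC and 2.19% of T cell MEM cells.

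**Figure D2:**
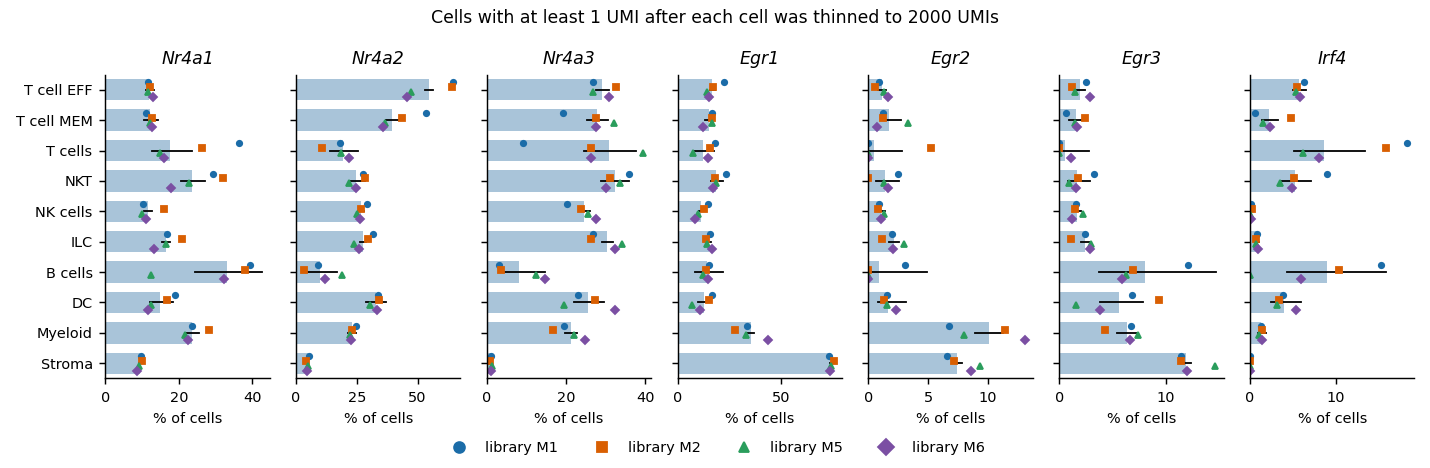
Share of cells with at least 1 UMI of each gene after every cell was thinned to 2000 UMIs. Bars are all 4 libraries together, black lines are exact 95% binomial intervals, and symbols are single libraries. Nr4a2 reaches 54.8% of T cell EFF, Egr1 74.3% of Stroma and Egr2 10.1% of Myeloid cells, and Irf4 is near 0 in NK cells and Stroma.

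Levels were then compared between pairs of labels within each library, as the ratio of CPM + 1. A gene counted as higher or lower when the ratio was 2-fold or more in the same direction in all 4 libraries, among genes with at least 5 CPM in 1 of the labels. The share of all tested genes that met this rule is given as the background. No p-value is given, since libraries of unknown treatment are not replicates.

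T cell EFF against NK cells compares lymphocytes with and without an antigen receptor. Nr4a2 was higher by 1.75 on the log2 scale (1.38 to 2.03 over the libraries) and Irf4 by 3.76 (3.51 to 3.95). These were 2 of 7 genes, against a background of 3.16% of all tested genes, and none was lower, against 2.39%. Egr1 was higher in all 4 libraries by 0.65 to 1.18 without meeting the rule, and Nr4a3 by 0.41 to 0.60. With CD8 T cells picked by transcripts, and NK cells likewise within the NK cells and ILC labels, both chosen after the data were seen, Egr1 was at 0.79, Nr4a3 at 0.35, Nr4a2 at 1.99 and Irf4 at 3.53. With NK cells picked by transcripts from every label, 43.1% of their UMIs were those of Stroma cells, and Egr1 turned to −1.46, Egr2 to −1.09 and Egr3 to −1.05. Of 14 tested activation and checkpoint genes induced through the receptor, 9 were higher, among them Pdcd1 (PD-1) at 567 against 10.3 CPM, Icos at 421 against 148 CPM, Lag3 at 392 against 69.8 CPM and Ifng at 384 against 40.3 CPM. Of 10 negative regulators linked to EGR2 and EGR3, 5 were higher, among them Nrgn at 413 against 120.1 CPM and Dusp4 at 128 against 7.43 CPM. Their medians were 1.72 and 1.01, and that of all tested genes 0.07. The 8 genes of the myeloid list had a median of 1.08 in the same comparison, with none past the rule and Lyz2 at 373 against 134 CPM, and their part in these differences was not tested. Of 18 genes of the receptor signaling chain 5 were higher, among them Cd3e, Cd3d and Cd3g, which also served as markers of the T cell labels. None of 12 tested AP-1 and IRF4 partners and none of 18 handling genes was higher, which does not depart from the background of 3.16%. The medians of these 3 lists were 0.68, 0.52 and 0.37, all above the 0.07 of all tested genes.

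Between T cell EFF and T cell MEM no member met the rule in either direction, against backgrounds of 3.58% higher and 0.544% lower, which 0 of 7 does not depart from. Egr1 came nearest, higher in T cell EFF by 0.75 to 2.07 and by 1.18 pooled, but by 0.42 without high doublet scores and by 0.27 with thinned sums. Between NKT and T cell EFF none met it either, with backgrounds of 2.18% and 2.21%. There Nr4a1 was higher in NKT in every library, by 0.77 to 1.76, and Nr4a2 lower, by −1.27 to −0.62.

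ILC against NK cells gave 1 call, Irf4, higher by 1.82 (1.55 to 2.15), against 2.01% of all genes, with no member lower against 0.0426%. The levels were small, 5.82 and 0.935 CPM. All 7 members were higher in ILC in all 4 libraries, by 0.16 or more, as were 23.2% of all genes. The ILC label also carried more of other cells: Lyz2, a myeloid lysozyme, was at 554 CPM against 134 CPM in NK cells and Cd3e at 75.5 against 9.94 CPM, and 4 of 8 genes of the myeloid list and 4 of 18 of the receptor chain were higher. The Irf4 call was lost when lymphocytes with 2 or more myeloid UMIs were left out, although the pooled log2 ratio, at 1.58, stayed past 2-fold. Irf4 levels under this setting are not given, so a fall under the 5 CPM needed for testing cannot be told from a smaller ratio in a library. The part of myeloid transcripts in the Irf4 difference was not tested.

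Myeloid against T cell EFF gave Egr2 higher by 2.40 (2.04 to 2.76) and Irf4 lower by −1.49 (−2.13 to −1.15). The background was 10.3% higher and 4.87% lower, so the number of calls was near it. Nr4a1, Egr1 and Egr3 were higher and Nr4a2 and Nr4a3 lower in all 4 libraries without meeting the rule. Of the 18 handling genes, 8 were higher in Myeloid cells, Ier3 at 1082 against 231 CPM and Klf6 at 777 against 339.8 CPM among them. Between DC and Myeloid cells, Egr2 was lower in DC by −1.71 (−2.36 to −1.43), 1 of 7 against 4.87%, and no member was higher, against 3.43%.

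Stroma against T cell EFF divided the families. Egr1 was higher in Stroma by 2.36 (1.60 to 2.89), Egr2 by 1.62 (1.39 to 1.99) and Egr3 by 1.85 (1.39 to 2.54), 3 of 7 against a background of 13.7%. Nr4a2 was lower by −4.39, Nr4a3 by −5.41 and Irf4 by −4.51, 3 of 7 against 16.1%. Nr4a1 was lower in all 4 libraries by less than 2-fold, −0.83 to −0.56. Of the 18 handling genes 4 were higher in Stroma too (Fos, Fosb, Jun and Ier3) and 2 were lower, with Fosb at 929 against 215 CPM and Jun at 794 against 161 CPM. The handling list summed to 11614 CPM in Stroma, 11824 in Myeloid, 7036 in T cell EFF and 5462 in NK cells, and its part in the EGR levels was not tested. With cells holding an Hspa1a or Hspa1b UMI left out, Egr1 stood at 1137 CPM in Stroma and 186 CPM in T cell EFF.

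**Figure D3:**
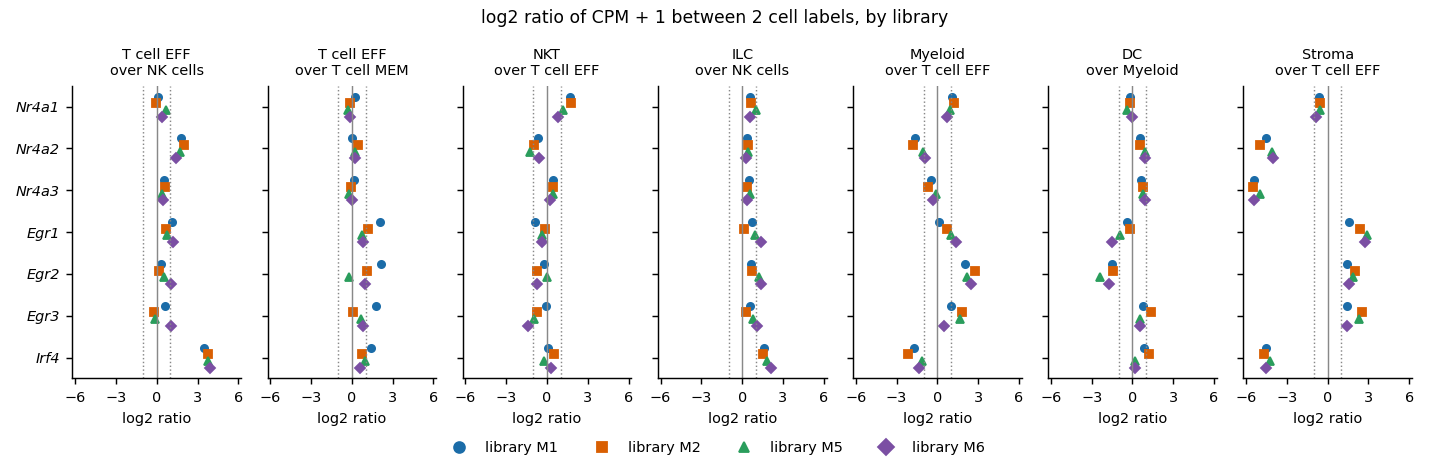
Log2 ratio of CPM + 1 between 2 labels for each gene and library. Dotted lines mark 2-fold in either direction and each symbol is 1 library. Irf4 and Nr4a2 lie past 2-fold in T cell EFF over NK cells in all 4 libraries, and the EGR genes lie to the right and Nr4a2, Nr4a3 and Irf4 to the left in Stroma over T cell EFF.

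Fibroblast markers were also found in the other labels. The 4 fibroblast markers summed to 765 CPM in Stroma, and as a percentage of that to 4.22% in NK cells, 8.34% in T cell EFF (1.59–13.6%), 13.0% in ILC, 8.63% in Myeloid and 11.5% in DC, with none of the 4 at 0 in any of these labels. Egr1 stood at 9.95% of its Stroma level in NK cells, 19.4% in T cell EFF, 18.1% in ILC and 34.3% in Myeloid. Egr2 reached 20.1%, 30.7% and 174% in NK cells, T cell EFF and Myeloid, and Egr3 117% in DC (75.3–157%). In the pooled sums all these percentages lay above that of the fibroblast markers in the same label. The markers need not follow transcripts carried over from most Stroma cells, however. After thinning, 13856 Stroma cells had no Col3a1 UMI, and Egr1 in them was at 1258 CPM. A higher EGR than marker percentage therefore does not separate the label's own transcripts from those of Stroma. Library ranges of Egr1 and of the markers overlapped in NK cells (6.42–15.2% and 1.79–7.68%) and T cell EFF (13.4–32.9% and 1.59–13.6%). They also did in ILC (13.3–25.6% and 3.29–23.7%), but not in Myeloid (27.1–38.1% and 4.35–17.2%). Without cells of a doublet score over 0.25, Egr1 was at 130.1 CPM in T cell EFF and 143 CPM in ILC, against 1161 CPM in Stroma. The percentages above include those cells, and marker percentages without them are not given. How much of the EGR level came with Stroma transcripts was not tested.

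**Figure D4:**
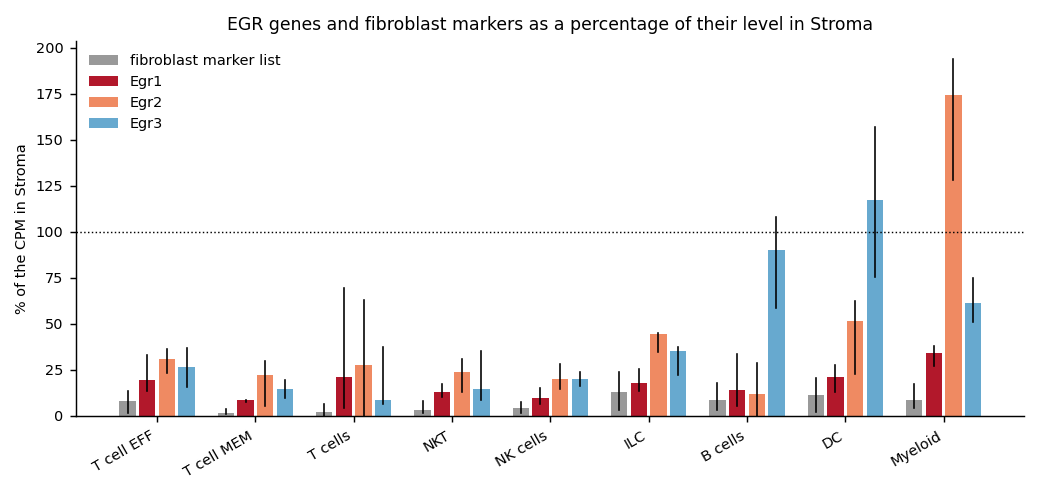
Summed fibroblast markers (Col3a1, Dcn, Col1a1 and Pdgfrb), Egr1, Egr2 and Egr3 in each label as a percentage of their CPM in Stroma. Bars are the 4 libraries together, black lines run from the lowest to the highest library, and the dotted line is the Stroma level. The bars of Egr2 in Myeloid (174%) and Egr3 in DC (117%) pass it, Egr2 in every library (128–194%) but Egr3 not (75.3–157%). The bars of Egr1 stay at 34.3% or less, with 1 library of T cells at 69.5%.

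Stroma cells were split by a Col3a1 UMI. After thinning, Nr4a1 was at 110.0 CPM in the 1786 cells with one (97.5–147) and 50.5 CPM in the 13856 without (49.1–52.6), with no overlap. Egr3 at 100.2 against 65.2 CPM did not overlap either, and Egr1 was at 1372 against 1258 CPM. Nr4a3 was low in both, at 9.52 CPM (5.28–30.8) against 4.33 CPM (3.65–5.03), with ranges only just apart. This split and those that follow were chosen after values of these data had been seen.

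T cells were also picked by transcripts across the labels. CD8 T cells (3824 cells) had Nr4a2 at 612, 656, 448 and 450.2 CPM in the 4 libraries. Foxp3-positive T cells (600 cells, 32 of them in M1), which carry the regulatory T cell factor, had 105 CPM (73.2–113), and Foxp3-negative CD4 T cells (401 cells) 138 CPM (108–162). Neither overlapped the CD8 T cells. Nr4a2 was the only member to meet the 2-fold rule in CD8 T cells over Foxp3-positive cells, against 1.94% of all genes, and over Foxp3-negative CD4 T cells, against 3.15%. No member was lower by 2-fold, against 2.57% and 1.64%. Nr4a1 ran the other way, 65.6 CPM (60.2–74.5) in CD8 T cells, 133 CPM (113–229) in Foxp3-positive and 110.2 CPM (100.5–135) in Foxp3-negative CD4 T cells. The CD8 range lay below the other two, which overlapped. Pooled Irf4 was at 24.6 CPM in both CD8 (19.7–27.8) and Foxp3-positive T cells (16.3–61.7), and Nr4a3 at 181 CPM (154–219) and 175 CPM (89.5–186). The libraries of Foxp3-positive cells thus differed widely. The NKT label, which held Foxp3 transcripts, likewise had less Nr4a2 and more Nr4a1 than T cell EFF in every library.

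T cell EFF cells were then split, after thinning, by a UMI of each of 12 activation genes. The share of cells with a UMI of each member was compared for the 5 members found in at least 2% of cells, which left out Egr2 and Egr3. Over all splits, 2 of 60 member shares were 1.5-fold higher in cells with the activation gene in every library, against 0.147% of all genes and splits. Both were Irf4. With a difference of 10% in place of 1.5-fold, taken after the ratios were seen, 12 of 60 were higher, against 3.25%, and 3 were lower, against 3.55%. Genes found in more cells vary less from library to library, and such a difference between members and other genes was not adjusted for.

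Irf4 was found in 9.18% of the 904 T cell EFF cells with an Ifng UMI and in 4.54% of the 2641 without. Ifng encodes interferon-γ, made soon after receptor engagement. In M1, M2, M5 and M6 the shares were 9.69%, 7.86%, 7.84% and 11.8% with Ifng and 5.20%, 4.65%, 4.61% and 3.69% without, so that every value with Ifng lay above every value without. Only 0.121% of all tested genes met the 1.5-fold rule in this split. With Cd69, an early activation antigen, Irf4 was found in 9.73% against 5.09% of cells (ratios 1.60 to 2.30), a rule met by 0.215% of genes. Under 6 other settings the ratio by Ifng stayed past 1.5-fold in every library in 4 and that by Cd69 in 3, and thinning to 4000 UMIs ended both calls, at 1.70 and 1.51. With Havcr2 (TIM-3) it was 7.53% against 5.25%. By Pdcd1, Irf4 did not separate, 5.64% against 5.87%. Nr4a1 was found in 18.0% against 11.1% of cells by Cd69 and in 16.0% against 10.7% by Ifng.

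Nr4a2 was higher by 10% or more in every library with 4 of the 12 genes, Pdcd1, Tox, Tnfrsf9 and Xcl1. It was found in 60.6% of the 2251 cells with a Pdcd1 UMI and in 44.7% of the 1294 without, with 69.7% against 53.5% in M1, 67.6% against 55.2% in M2, 53.1% against 38.5% in M5 and 51.2% against 39.1% in M6. The ratio was at least 1.22 in each library, and 4.33% of genes were 10% higher or more in all 4. With Tox, a factor of the exhaustion program, it was 66.7% against 52.3%, and Nr4a1 and Nr4a3 were higher by 10% or more as well, against 2.76% of genes. With Tnfrsf9 (4-1BB) Nr4a2 was 56.6% against 49.2%, against 3.75%, and with Xcl1, a chemokine, Nr4a2 and Nr4a3 were higher, against 3.47%. The other checkpoint genes did not pass for Nr4a2, at 58.5% against 50.5% by Lag3, 58.1% against 52.1% by Ctla4 and 52.3% against 55.5% by Havcr2. By Cd69 it was 54.2% against 54.9%. Egr1 was lower in cells with Tnfrsf9, 15.3% against 21.6%, against 3.92% of genes. It was also lower with Tnfrsf4, 13.9% against 19.1%, against 2.70% of genes, and with Cd160, 13.1% against 17.3%, against 4.57%. Every lower call was thus Egr1.

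**Figure D5:**
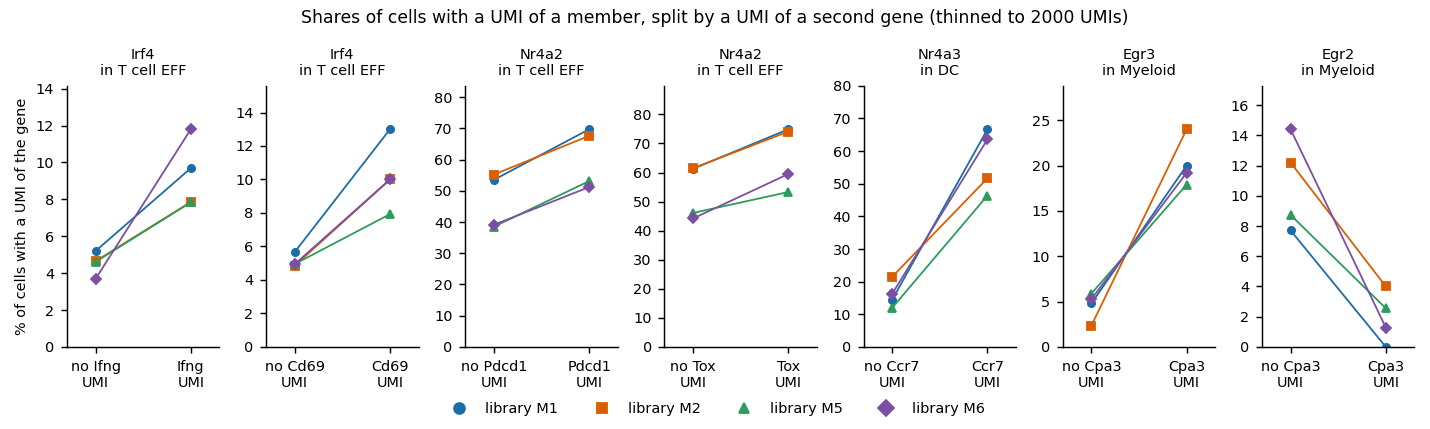
Share of cells with a UMI of a member (y axis, %, each panel with its own scale from 0) in cells without and with a UMI of a second gene, after thinning to 2000 UMIs. Each line is 1 library. All 4 lines rise for Irf4 by Ifng and Cd69, Nr4a2 by Pdcd1 and Tox, Nr4a3 in DC by Ccr7 and Egr3 in Myeloid by Cpa3, and all 4 fall for Egr2 in Myeloid by Cpa3.

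DC and Myeloid cells were split by markers in the same way. Among DC, Nr4a3 was found in 57.4% (48.1–66.3%) of the 122 thinned cells with a UMI of Ccr7, the chemokine receptor of migrating dendritic cells, and in 16.3% (12.9–20.2%) of the 417 without. By library the shares were 66.7%, 51.7%, 46.4% and 63.6% against 14.5%, 21.5%, 12.0% and 16.3%. Nr4a2 was found in 48.4% against 28.3%, with 66.7% against 27.3% in M1 but 32.1% against 30.0% in M5, and Egr1 in 9.84% against 13.4%. In the 90 DC with a UMI of Xcr1, a receptor of cross-presenting dendritic cells, Egr3 was found in 16.7% (9.64–26.0%) against 3.34% of the others. In M5 none of 16 such cells had an Egr3 UMI, which allows up to 18.8% of cells with a UMI at this depth and sets no limit on cells that express the gene.

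Among Myeloid cells, the 276 with a UMI of the mast cell protease Cpa3 had Egr3 in 19.9% (15.4–25.1%), against 4.67% of the others, and 17.9% was the lowest library against 5.88% as the highest. Egr2 was the reverse, 1.81% (0.591–4.18%) against 11.1% (9.83–12.5%). In cells with the macrophage complement gene C1qa, Egr2 was found in 10.4% against 9.97%, and Nr4a1 in 15.6% against 26.8%. Egr1 was found in 54.1% of the 481 cells with S100a8, a neutrophil and monocyte gene, and in 31.0% of the others.

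Pairs of members in the same cell were compared with the product of their shares. In T cell EFF none of 11 pairs, in NK cells none of 6 and in Myeloid cells none of 13 was found in the same cells 1.5 times as often as that product in every library. The rule was met by 0.0150%, 0.00681% and 0.0483% of all pairs of genes in these labels, so a count of 0 does not set the members apart. Nr4a2 and Nr4a3 were together in 668 T cell EFF cells where the product of their shares gave 568, a ratio of 1.18 (1.11–1.26). Nr4a1 and Nr4a3 had 1.33 (1.12–1.47), while Nr4a2 and Egr1 had 0.943 (0.908–0.995). In Stroma 1 of 11 pairs passed, Nr4a1 with Egr2 at 1.67 (1.53–1.94), against 0.0731% of all pairs, and Egr2 with Egr3 was at 1.54 (1.40–1.79).

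Of 11519 genes, those most like each member over the 38 label and library sums were listed by Pearson r. For Nr4a3 they were Gpr132 (0.978), Chd7 (0.973) and Samsn1 (0.970), and for Nr4a2 Bcl2a1d (0.905), Bcl2a1b (0.900) and Epsti1 (0.893). The Bcl2a1 genes are near-identical copies whose reads may be split between them. For Egr1 they were Vcam1 (0.943), Masp1 (0.911) and Cd63 (0.904), for Egr2 Fam129b (0.946), Ralb (0.932) and Il15 (0.914), and for Egr3 Erlin1 (0.903) and Myo1c (0.901). Nr4a1 was most like Map3k8 (0.833), Cyth1 (0.830) and Tnfrsf13b (0.829), and Irf4 like Stambpl1 (0.876), Susd3 (0.874) and Rel (0.860). Among the members, Egr1 and Egr2 had r = 0.71, Nr4a1 and Irf4 0.70, and Nr4a3 and Egr1 −0.72.

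Of the other genes of the pathway, Egr4, the remaining EGR member, stayed under 1 CPM in every label. The EGR corepressors Nab1 and Nab2 met the 2-fold rule in none of the 7 label pairs, with Nab1 at 116 CPM in T cell EFF and 85.8 CPM in Stroma, and Nab2 at 56.5 and 70.9 CPM.

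The libraries differed in some members within a label. In T cell EFF the highest library was 1.5-fold or more over the lowest for Nr4a2 (1.70), Egr1 (2.05) and Egr3 (2.24), 3 of 7 against 18.2% of all genes. Without cells of a doublet score over 0.25, Egr1 no longer passed, at 1.17, Nr4a2 and Egr3 did, at 1.80 and 2.64, and Egr2 newly did, at 2.01. Nr4a2 was highest in M1 and M2, the libraries with the larger shares of Stroma cells. In NK cells 2 of 6 tested members passed, Nr4a1 and Egr1, against 11.9%, in ILC 2 of 7, Egr1 (1.64) and Egr3 (1.83), against 10.2%, in Myeloid cells 2 of 7, Egr2 (1.51) and Irf4 (1.58), against 21.6%, and in Stroma none of 5, against 4.43%. Without high doublet scores both Myeloid calls were lost, at 1.49 and 1.39, while Egr1 in Myeloid cells (1.61), Egr3 in NK cells (2.02) and Egr2 in ILC (1.69) newly passed, and Egr1 and Egr3 in ILC rose to 2.45 and 2.92. Nr4a3 in Stroma, under 5 CPM and not counted, was at 1.64. Whether treatment, tumor or library preparation lies behind these differences cannot be told apart.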

How the data were processed

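The authors generated 3′ v3 libraries, counted UMIs with Cell Ranger 3.0.2 on mm10 (GRCm38; tool and build from the submitters' processing notes and the paper), kept cells above 500 UMIs and labelled each cell by its best-correlated ImmGen profile. The deposited values are UMI counts without normalization, and each cell has a library and a cell label. The 7 genes, the gene lists and the label pairs were chosen with earlier results of these data known. Genes named besides the 7 are the called list members of highest CPM, markers, the genes used for splits, and the 3 genes most like each member, 1 of which is not reported here. Counts were summed per label and library with scipy 1.17.1, pandas 2.3.3 and numpy 2.4.6 in Python 3.11.15. A pseudocount of 1 CPM was used, and shares were computed after thinning without replacement to 2000 UMIs. The call rule and the thinning were tested on simulated data. Doublets were scored with scrublet in scanpy 1.11.5 (expected rate 0.06), a limit of 0.25 was set after its automatic threshold was seen, and scored cells stayed in except in the alternative. No correction for free RNA was made. Treatment tests with edgeR were designed but not run, because the 4 library names match no sample label. Alternatives changed the fold, pseudocount, thinning depth, cells and libraries.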

Additional observations from a re-analysis of the deposited data

How the results depend on the processing

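Of 651 log2 ratios between labels recomputed under 15 settings, 625 kept their side of the 2-fold rule, 11 no longer met it and 15 newly met it. No ratio that met the rule changed sign, but 13 that did not meet it did, with main values of 0.95 or less in size and values up to −1.46 after the change (Egr1 with NK cells picked from every label). Of these 13, 6 were in T cell EFF over NK cells, where Nr4a1 went from 0.28 to −0.07 with thinned sums, and Egr3 in DC over Myeloid went from 0.92 to −0.15 with thinned sums. Most changes came with the fold itself. At 1.5-fold, 3 members were higher in T cell EFF than in NK cells, 1 was higher in T cell EFF than in T cell MEM, 1 higher and 1 lower in NKT than in T cell EFF, 2 higher in ILC than in NK cells, 2 higher and 2 lower in Myeloid than in T cell EFF, and 1 higher in DC than in Myeloid. At 3-fold, 1 was higher in T cell EFF than in NK cells, 0 in ILC than in NK cells, 0 lower in Myeloid than in T cell EFF, 0 lower in DC than in Myeloid, and 1 higher in Stroma than in T cell EFF. The Irf4 call in ILC over NK cells gave 0 members with a pseudocount of 5 CPM, without lymphocytes holding 2 or more myeloid UMIs, without cells holding an Hspa1a or Hspa1b UMI, and with thinned sums. Without the Hspa1a or Hspa1b cells Irf4 was at 4.82 against 0.673 CPM, and with thinned sums at 4.20 against 0.474 CPM. Both pooled ILC levels lie under the 5 CPM that a gene needs to be tested, so these 2 losses do not show a smaller ratio. For the loss without lymphocytes holding myeloid UMIs the levels are not given, so it does not show a smaller ratio either. In Myeloid against T cell EFF, a pseudocount of 5 CPM left 0 members lower, while 2 were lower without Hspa1a or Hspa1b cells and with thinned sums, and 2 were higher without high doublet scores and with thinned sums. Thinned sums gave 1 member higher in DC than in Myeloid, Irf4. Leaving out each library gave 0 to 1 members higher in NKT than in T cell EFF (Nr4a1 at 1.48 without M6) and 1 to 2 lower in Myeloid than in T cell EFF (Nr4a2 at −1.44 without M6). The causes were not tested.

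Shares followed the depth. In T cell EFF, thinning to 1000 UMIs, thinning to 4000 UMIs and no thinning gave 6.85%, 22.0% and 40.2% for Nr4a1, 37.8%, 73.0% and 85.2% for Nr4a2, 17.5%, 47.1% and 71.0% for Nr4a3, 9.14%, 27.8% and 49.6% for Egr1, 0.688%, 2.65% and 7.90% for Egr2, 1.13%, 3.34% and 8.86% for Egr3 and 2.89%, 10.0% and 23.2% for Irf4. Without high doublet scores Egr1 was 15.3% and Egr3 1.52%. Leaving out each library gave 51.8% to 58.2% for Nr4a2 and 15.3% to 18.1% for Egr1. At 1000 UMIs, 2 pairs in NK cells and 0 in Stroma were found together 1.5 times the product of shares. By Spearman rho, 7 of the 21 most similar genes were the same. Of settings added after the data were seen, the Irf4 ratio by Ifng ran from 1.70 to 2.39 over 6 settings and met 1.5-fold in every library in 4, and by Cd69 from 1.51 to 2.35, in 3.

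No paired analysis was possible because no replicate number of the sample labels stands in a library name. DESeq2, DESeq2 size factors, the fit without a low-count filter and the replicate block were for this reason not run. Libraries, tumors and treatments cannot be told apart.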
